A study of Homo sapiens with 12 samples.

Results

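A set of 10 collagen chain genes was followed across 2 human pancreatic cancer cell lines: COL1A1, COL1A2, COL5A1 and COL5A2 of the fibrils, COL4A1, COL4A2 and COL18A1 of basement membranes, COL12A1 of fibril surfaces, and the membrane-bound COL13A1 and COL17A1. They were chosen by symbol from 22650 genes listed in the RNA-seq tables, with the FPKM values (fragments per kilobase of transcript, scaled to the mapped fragments of the library, a level per transcript length) of these same groups in view. Their levels and differences are therefore given as a description, without a test. They are 10 of 41 collagen chain genes in the files.

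The study compared ASAP2 knockout with wild-type cells in the established pancreatic ductal adenocarcinoma lines Panc1 and MiaPaCa2, with 3 libraries in each of 4 groups. ASAP2 encodes an Arf GTPase-activating protein. Every library came from the total RNA of cultured cells sequenced on a BGISEQ-500. No drug, time point or second genetic change is named for any group. The labels do not tell how the knockout was made or whether a knockout line is 1 clone. The labels do not say whether replicates were separate cultures, so error terms and p-values measure the spread between these libraries, which may be technical. A lower level in such bulk RNA can come from fewer cells of a kind or from less RNA per cell, and these cannot be told apart.

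The libraries listed 17958 to 19105 genes, and their sequencing depth is unknown because FPKM keeps no read counts. ASAP2 itself was 36.9 ± 2.04 FPKM (SD, n = 3) in wild-type and 13.8 ± 0.978 FPKM in knockout Panc1, a log2 change of -1.36 (limma, adjusted p = 1.46e-08). In MiaPaCa2 it was 13.5 ± 0.32 and 12.4 ± 1.29 FPKM (log2 change -0.13, limma, adjusted p = 0.197), so the RNA level does not check the knockout label of that line. The keratins KRT8, KRT18 and KRT19 had means of 35.0 FPKM or more in all 4 groups. KRT19 was lower in knockout than in wild-type libraries, at 254 and 541 FPKM in Panc1 and 35.0 and 105 FPKM in MiaPaCa2. KRT8 and KRT18 were higher in knockout Panc1 and lower in the MiaPaCa2 libraries labelled knockout. The epithelial adhesion gene EPCAM was 2.63 FPKM in wild-type Panc1 and at 0 in every MiaPaCa2 library. In wild-type Panc1 and MiaPaCa2, KRT7 was 2.48 and 0.0303 FPKM, MUC1 22.5 and 3.12 FPKM, and CDH1 0.328 and 0.01 FPKM. Of 9 fibroblast and stellate cell markers, 6 were listed (DCN, FAP and PDPN were not analysed here). The number that reached a mean of 1 FPKM was 2 in wild-type Panc1, 3 in knockout Panc1 and 1 in each MiaPaCa2 group, and LUM and DES were near 0 throughout. The summed level of the 6 listed markers was 25.9 to 29.0 FPKM in wild-type and 55.9 to 57.9 FPKM in knockout Panc1, carried by THY1 and FBLN1. It was 3.87 to 4.16 and 4.89 to 6.72 FPKM in the MiaPaCa2 groups.

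Some libraries carried a little more RNA of genes that belong to the other line. Over 35 genes at 10 FPKM or more in every MiaPaCa2 library and with a median below 0.3 FPKM in Panc1, Panc1 wild-type replicate 1 had a median of 1.42% of the MiaPaCa2 level. Panc1 knockout replicate 3 had 0.625%, and the other 4 Panc1 libraries had 0.132% to 0.158%. Over 102 genes of the reverse kind, MiaPaCa2 wild-type replicate 1 had 0.312% of the Panc1 level and the other MiaPaCa2 libraries 0.027% to 0.0922%. This touches the low collagen levels below, and its part in them was not tested.

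Collagens are triple helices of 3 chains, each a long run of Gly-X-Y repeats. Type I collagen is typically built from the COL1A1 and COL1A2 products together, type V from the COL5A1 and COL5A2 products, and type IV networks from the COL4A1 and COL4A2 products, so the partner chains are usually expressed side by side. In pancreatic tumours most fibrillar collagen is laid down by fibroblasts and stellate cells, and cancer cells can also make it.

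The genes sit on 8 chromosomes (coordinates in GRCh37, hg19), and only the type IV pair are neighbours. COL1A1 lies at chr17:48261462-48278993 and its partner COL1A2 at chr7:94024207-94060539. COL5A1 lies at chr9:137533649-137736689 and COL5A2 at chr2:189896624-190090038. COL4A1 (chr13:110801310-110959504, minus strand) and COL4A2 (chr13:110958159-111165556, plus strand) are transcribed away from each other, and their annotated spans overlap at the start. COL12A1 lies at chr6:75794042-75915983, COL13A1 at chr10:71561636-71724031, COL17A1 at chr10:105791044-105845638 and COL18A1 at chr21:46825080-46933634.

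Promoter sequence is shown for 3 places picked by the levels described below, and no link between sequence and level was tested. They are the stretch shared by the type IV pair, which were on together in 1 line, COL5A1, with the widest knockout difference, and COL17A1, on in MiaPaCa2 alone. The windows are from RefSeq (GRCh38.p14), placed on GRCh37 by exact match. Windows were found for 7 of the 10 genes, those of COL12A1, COL13A1 and COL18A1 not shown, and none for COL1A1, COL1A2 and COL5A2. Each is written 5′ to 3′, the shared stretch in the direction of COL4A2 and the others in the direction of their gene. Capitals mark a CCAAT box (CCAAT), a GC box (GGGCGG) or a TATA motif (TATAAA) on either strand.

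COL4A1-COL4A2: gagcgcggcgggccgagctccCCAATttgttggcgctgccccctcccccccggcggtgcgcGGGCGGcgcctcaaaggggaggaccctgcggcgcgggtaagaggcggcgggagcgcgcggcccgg

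COL5A1: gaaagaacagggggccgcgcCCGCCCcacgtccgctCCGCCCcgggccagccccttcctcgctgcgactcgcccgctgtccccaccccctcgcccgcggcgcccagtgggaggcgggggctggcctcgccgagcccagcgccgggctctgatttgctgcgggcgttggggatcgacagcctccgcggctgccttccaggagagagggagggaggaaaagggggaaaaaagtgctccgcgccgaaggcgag

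COL17A1: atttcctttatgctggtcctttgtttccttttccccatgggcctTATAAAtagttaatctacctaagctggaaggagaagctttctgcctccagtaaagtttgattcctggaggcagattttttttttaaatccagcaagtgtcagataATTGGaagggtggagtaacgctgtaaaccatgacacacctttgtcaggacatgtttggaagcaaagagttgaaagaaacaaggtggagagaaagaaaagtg

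The shared type IV stretch (chr13:110959505-110959630, plus strand) is 126 bases long, with 20 CpG dinucleotides, 80.2% GC, 1 CCAAT box and 1 GC box. Among the last 126 bases before the start in 35116 RefSeq promoter windows the median is 6.0 CpG, 21.1% hold a CCAAT box and 34.6% a GC box. The COL5A1 window (chr9:137533399-137533648, plus strand) is 250 bases long, with 29 CpG, 74.0% GC and 2 GC boxes. The COL17A1 window (chr10:105845639-105845888, minus strand), also 250 bases, has 1 CpG, 40.4% GC, 1 CCAAT box and 1 TATA motif. Of all 250-base windows 32.0% hold a CCAAT box, 42.6% a GC box and 10.7% a TATA motif, and the median is 11 CpG and 58.0% GC. These are letter matches, not sites known to be used. COL17A1 thus has a CpG-poor start, with more CpG than 6.1% of windows, while COL5A1 has more than 85.9%.

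Exon structure separates the fibrillar chains from the others. Fibrillar collagen genes are known for exons of 45, 54 or 99 bases or a small multiple of 54 bases, whole numbers of 9-base units that each encode 1 Gly-X-Y triplet. In the canonical transcripts, 41 of 51 coding exons of COL1A1 had 1 of these lengths, as did 43 of 52 of COL1A2, 45 of 66 of COL5A1 and 43 of 54 of COL5A2. The share was 4.8% in COL18A1, 6.2% in COL12A1, 10.9% in COL17A1, 15.4% in COL4A1, 21.3% in COL4A2 and 22.5% in COL13A1, against 3.32% of all 196032 coding exons. The paired chains COL1A1 and COL1A2 thus share an exon plan although they lie on different chromosomes.

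In type I collagen, each line expressed 1 chain of the pair. COL1A1, which encodes the chain present in more copies per molecule, was 86.7, 91.8 and 89.5 FPKM in the wild-type Panc1 libraries and 283, 292 and 367 FPKM in the knockout libraries. All 3 knockout libraries lay above all 3 wild-type libraries. The means were 89.3 ± 2.56 and 314 ± 46.5 FPKM (SD, n = 3), a 3.52-fold ratio and a log2(FPKM + 1) difference of 1.79 (SE 0.12). The fibroblast marker sum moved with it (25.9 to 29.0 FPKM in wild-type and 55.9 to 57.9 FPKM in knockout Panc1), and its part in the result was not tested. Within it, mean levels in wild-type and knockout Panc1 were 6.10 and 16.5 FPKM for THY1, 20.1 and 38.8 FPKM for FBLN1, 0.434 and 1.23 FPKM for ACTA2, and 0.421 and 0.646 FPKM for PDGFRB, none with overlap, while LUM and DES were near 0 in both groups. In MiaPaCa2 COL1A1 stood at 0.163, 0 and 0.023 FPKM in wild-type and 0.023, 0.023 and 0.057 FPKM in the libraries labelled knockout. These groups overlapped at the bottom of the scale, and the sign of their difference changed with the scaling.

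COL1A2, the other chain of type I collagen, had the reverse distribution. Wild-type MiaPaCa2 had 115, 113 and 114 FPKM, and the libraries labelled knockout had 150.1, 147 and 154 FPKM. The knockout group was higher with no overlap, at 1.32-fold (log2 difference 0.40, SE 0.02). In Panc1 values were 1.78, 0.017 and 0.026 FPKM in wild-type libraries against 0.017, 0.095 and 0.628 FPKM in knockout ones. The 2 highest of these 6 values were those of wild-type replicate 1 and knockout replicate 3, the libraries with the most RNA of MiaPaCa2 genes. They came to 1.57% and 0.552% of the wild-type MiaPaCa2 mean of COL1A2. The Panc1 knockout groups overlapped, with a log2 difference of -0.23 (SE 0.53), and without wild-type replicate 1 the difference was 0.26.

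**Figure D1:**
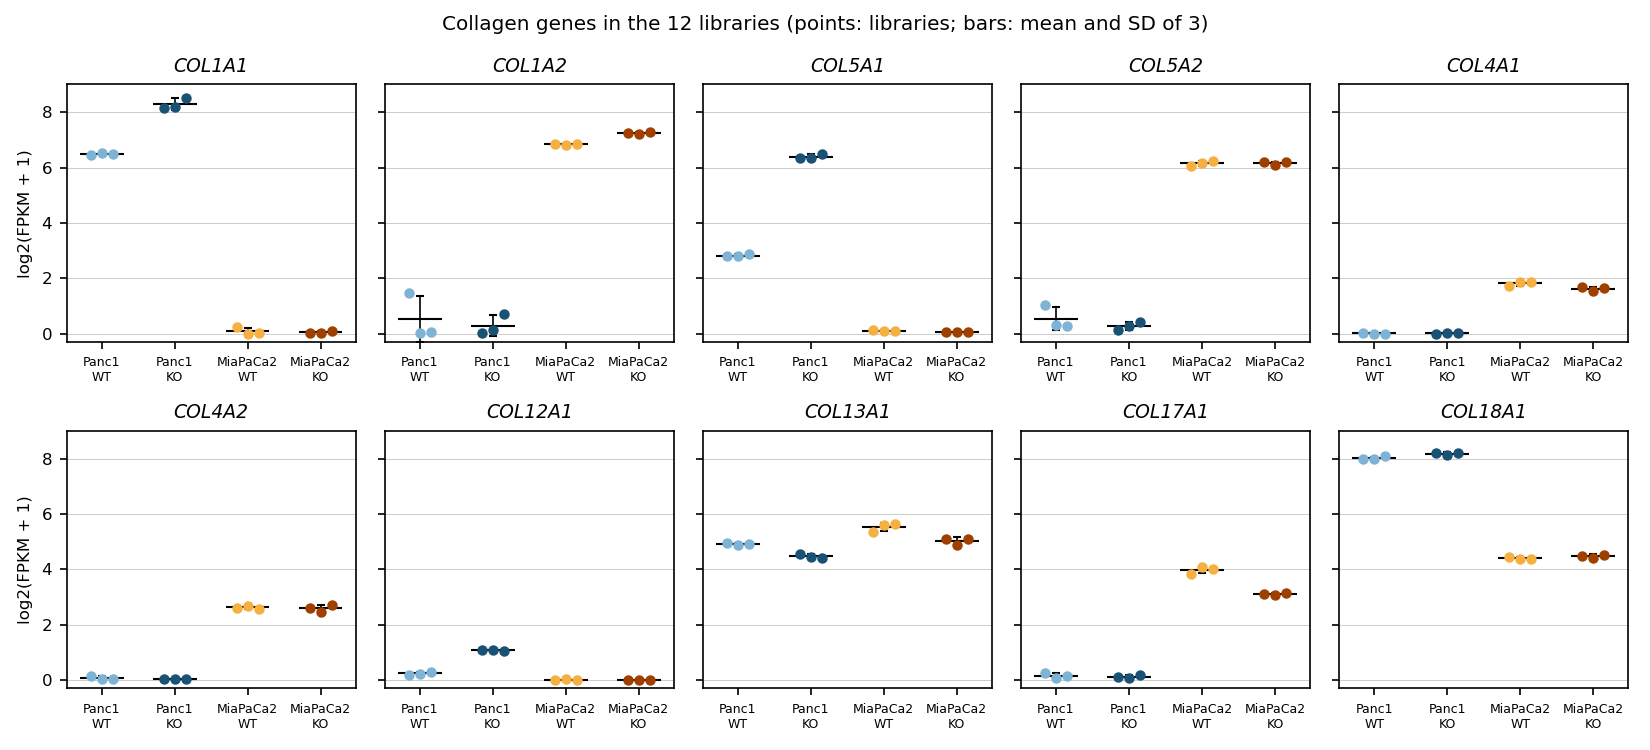
Level of the 10 collagen genes, as log2(FPKM + 1) on the vertical axis, by group on the horizontal axis. Points are the 12 libraries and black bars the mean and SD of 3. COL1A1 and COL5A1 are present in Panc1 and near 0 in MiaPaCa2. COL1A2, COL5A2, COL4A1, COL4A2 and COL17A1 are the other way round, with COL4A1 and COL4A2 at low levels. COL13A1 and COL18A1 are present in both lines.

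Type V collagen was split between the lines in the same sense. COL5A1, the main chain of type V collagen, which is known to start type I fibrils, was 5.90, 5.89 and 6.38 FPKM in wild-type Panc1 and 79.6, 79.7 and 89.5 FPKM in knockout Panc1. The groups lay far apart. Mean levels were 6.06 ± 0.279 and 82.9 ± 5.67 FPKM (SD, n = 3), a 13.7-fold ratio with a log2 difference of 3.57 (SE 0.06), the widest knockout difference among the 10 genes in either line. The same marker sum moved with this gene. Its level passed 40.9% of the tested genes in wild-type Panc1 and 94.4% in knockout Panc1. All MiaPaCa2 libraries had 0.085 FPKM or less. There the libraries labelled knockout (0.043, 0.038 and 0.046 FPKM) were below the wild-type ones (0.085, 0.056 and 0.076 FPKM) without overlap, at levels too low to give a ratio.

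COL5A2, whose product joins 2 COL5A1 chains in the common form of type V collagen, was 65.9, 70.8 and 73.7 FPKM in wild-type MiaPaCa2 and 72.4, 67.9 and 72.0 FPKM in the libraries labelled knockout. These groups overlapped, with a log2 difference of 0.01 (SE 0.05). In Panc1 it was 1.06, 0.243 and 0.207 FPKM in wild-type libraries and 0.1, 0.201 and 0.32 FPKM in knockout. Wild-type replicate 1 was again the highest, at 1.51% of the wild-type MiaPaCa2 mean, and the groups overlapped. The log2 difference of COL5A2 in Panc1 was -0.28 (SE 0.26), and without that replicate -0.02.

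Between the wild-type lines, the log2 difference (Panc1 minus MiaPaCa2) was 6.41 for COL1A1 (SE 0.07) and 2.72 for COL5A1 (SE 0.03), but -6.33 for COL1A2 (SE 0.48) and -5.61 for COL5A2 (SE 0.25). In none of the 12 libraries did both chains of type I, or both chains of type V, pass 2 FPKM. COL3A1, the single chain of type III collagen, which often accompanies type I, did not exceed 0.24 FPKM in any library.

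**Figure D2:**
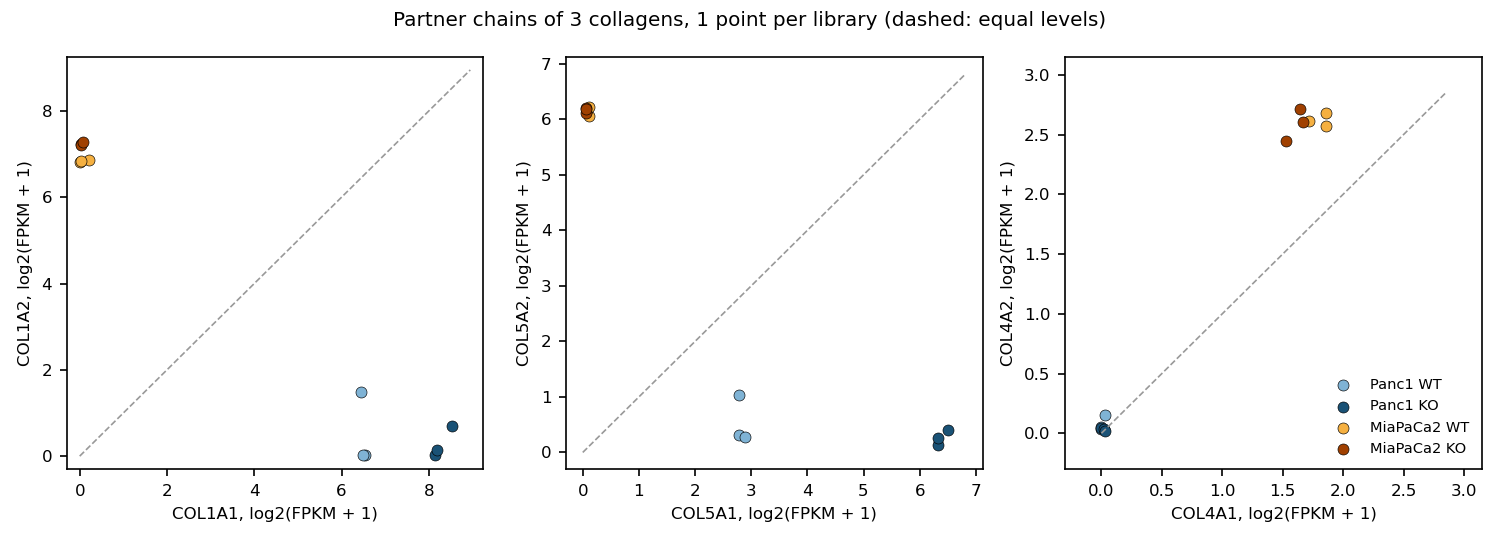
Partner chains plotted against each other, both axes in log2(FPKM + 1), 1 point per library: COL1A1 with COL1A2, COL5A1 with COL5A2, and COL4A1 with COL4A2, with a dashed line at equal levels. For types I and V the Panc1 libraries lie along one axis and the MiaPaCa2 libraries along the other, whereas both type IV chains are low in Panc1 and present in MiaPaCa2.

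The type IV chains of basement membranes kept together. COL4A1 was 2.29, 2.62 and 2.63 FPKM in wild-type MiaPaCa2 and 2.17, 1.88 and 2.13 FPKM in the libraries labelled knockout. The labelled knockout group was lower without overlap, 1.22-fold apart (log2 difference -0.20, SE 0.06). In Panc1 COL4A1 was at 0.021 FPKM or less in all 6 libraries. COL4A2 was 5.11, 5.43 and 4.96 FPKM in wild-type MiaPaCa2 and 5.08, 4.46 and 5.57 FPKM in the libraries labelled knockout, which overlapped (log2 difference -0.03, SE 0.08). Panc1 had 0.112 FPKM of COL4A2 or less. The ratio of COL4A2 to COL4A1 in MiaPaCa2 was 2.06 ± 0.171 in wild-type and 2.44 ± 0.148 in the libraries labelled knockout (SD, n = 3). The pair on a shared promoter was thus on or off together between the lines, and the 2 genes did not have the same level where they were on.

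COL18A1, whose C-terminal fragment is endostatin, was the most abundant collagen gene in wild-type Panc1, at 255, 252 and 270 FPKM, and stood at 297, 279 and 293 FPKM in knockout Panc1. The knockout libraries were higher without overlap, but only 1.12-fold (log2 difference 0.16, SE 0.04, from 0.07 to 0.28 by scaling). In MiaPaCa2 it was 21.1, 19.5 and 19.5 FPKM in wild-type libraries and 21.5, 20.3 and 22.2 FPKM in the libraries labelled knockout, with overlap (log2 difference 0.09, SE 0.05). Wild-type Panc1 had 12.9 times the wild-type MiaPaCa2 level. COL18A1 is thus the basement membrane collagen of Panc1 by level, and the type IV pair is near 0 there.

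COL12A1, a fibril-associated collagen that bridges fibrils and other matrix, was listed in 9 of the 12 libraries and was the 1 member that missed the filter of a mean of 1 FPKM in a line. It was 0.148, 0.169 and 0.225 FPKM in wild-type Panc1 and 1.12, 1.14 and 1.05 FPKM in knockout Panc1. The knockout libraries were higher without overlap, with a log2 difference of 0.83 (SE 0.03). It did not exceed 0.018 FPKM in MiaPaCa2.

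COL13A1, a transmembrane collagen of cell adhesion sites, was well expressed in both lines and was the one member lower without overlap in both knockout groups. It was 29.7, 28.5 and 29.3 FPKM in wild-type Panc1 and 22.7, 20.9 and 20.3 FPKM in knockout Panc1. In MiaPaCa2 it was 39.8, 47.1 and 48.4 FPKM in wild-type libraries and 33.5, 28.2 and 33.0 FPKM in the libraries labelled knockout. Neither pair of groups overlapped. The ratios of wild-type to knockout were 1.37 in Panc1 (log2 difference -0.44, SE 0.05) and 1.43 in MiaPaCa2 (log2 difference -0.50, SE 0.12). The difference between these effects was 0.06 (SE 0.13), and its sign changed with the scaling.

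COL17A1, the transmembrane collagen of hemidesmosomes, which anchor epithelial cells to the basement membrane, was a MiaPaCa2 gene. Wild-type MiaPaCa2 had 13.3, 15.9 and 15.3 FPKM, and the libraries labelled knockout had 7.53, 7.43 and 7.78 FPKM. The labelled knockout group was lower without overlap, by a factor of 1.96 (log2 difference -0.88, SE 0.07). Panc1 had 0.179 FPKM or less in all 6 libraries. This was the widest knockout difference among the 10 genes in MiaPaCa2.

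**Figure D3:**
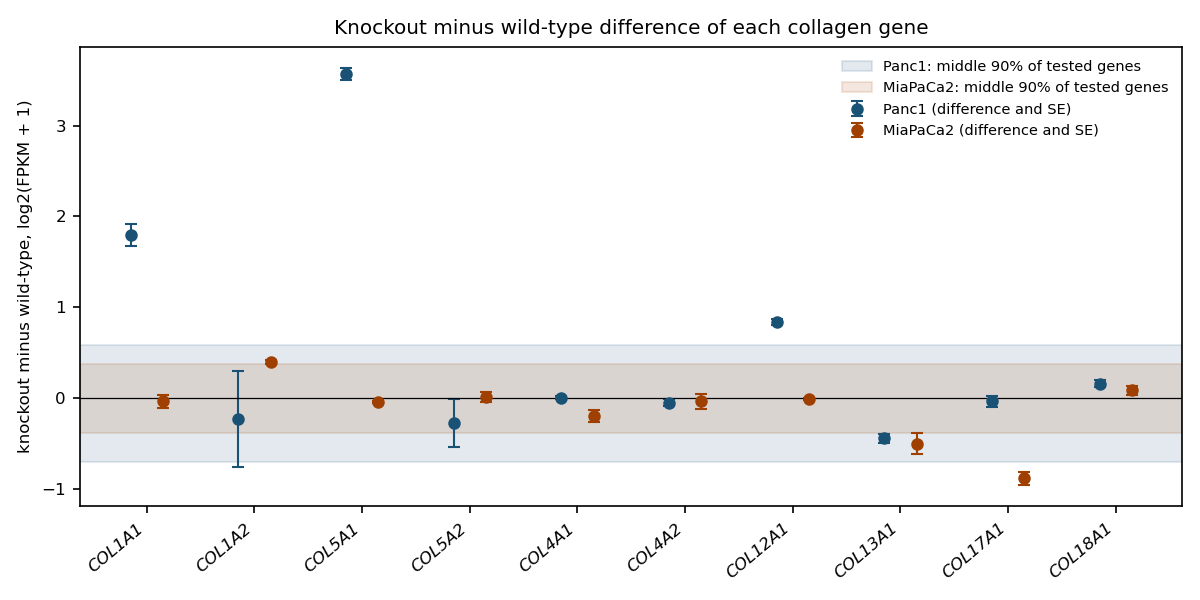
Knockout minus wild-type log2(FPKM + 1) difference of each of the 10 genes in Panc1 and in MiaPaCa2, with bars of 1 SE from the spread of the libraries and shaded bands over the middle 90% of all tested genes. COL5A1 (3.57) and COL1A1 (1.79) stand out in Panc1 and COL17A1 (-0.88) in MiaPaCa2, and COL13A1 is below 0 in both.

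A test across all 13340 genes with a mean of 1 FPKM or more in a line gives the background for these counts (limma, adjusted p below 0.05), and nothing is read from the members' calls because they were chosen on these values. In Panc1, 3 of the 9 tested members were called higher in knockout cells and 1 lower, where 63.5% of all tested genes were called, 21.8% higher and 41.6% lower. COL18A1, one of the 3, was not called on the TPM scale or under quantile normalization. The Panc1 groups did not overlap for 4 of the 9, against 70.1% of tested genes. In MiaPaCa2, 3 were called lower and 0 higher, where 34.1% of tested genes were called, 17.8% higher and 16.3% lower. COL4A1, one of these 3, was not called when MiaPaCa2 was fitted alone, at a pseudocount of 0.1, or without wild-type replicate 2, wild-type replicate 3 or knockout replicate 2 of that line. The MiaPaCa2 groups did not overlap for 5 of the 9, against 43.5%. COL1A2, among the 6 members not called in MiaPaCa2, was called when that line was fitted alone, and without Panc1 wild-type replicate 1. The comparison of the wild-type lines shares its libraries with both knockout comparisons. Between the wild-type lines all 9 were called without overlap, 3 higher in Panc1 and 6 lower, where 82.7% of tested genes were called, 41.8% higher and 40.9% lower, and 84.9% did not overlap. Of the 9, only COL13A1 and COL18A1 passed the filter in both lines, so the filter tied the direction of the rest. For the difference between the knockout effects (Panc1 minus MiaPaCa2), 4 were called with a positive value and 0 with a negative one. Of all tested genes 57.4% were called, 20.0% positive and 37.4% negative. A positive difference can come from a fall in MiaPaCa2, as for COL17A1, whose log2 difference was -0.03 in Panc1 and -0.88 in MiaPaCa2.

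The median log2 change of all tested genes was -0.10 in Panc1, and under median-ratio scaling it was -0.01. The share of Panc1 calls that were lower went from 65.6% to 50.6% with that scaling, to 52.0% with quantile normalization and to 73.8% on the TPM scale. In all of these scalings COL1A1 and COL5A1 lay above that median in Panc1, and COL13A1 lay below it. The genes of chromosome 17, home of COL1A1, had a median 0.14 above that of all genes in Panc1, those of chromosome 9, home of COL5A1, 0.04 above, and those of chromosome 7, home of COL1A2, 0.24 below.

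The makeup of the collagen transcripts differed by line and group. Summed over the 41 chains, collagen came to 463 ± 9.43 FPKM in wild-type Panc1 and 807 ± 55.6 FPKM in knockout Panc1 (SD, n = 3). In MiaPaCa2 the sums were 334 ± 5.39 FPKM in wild-type and 377 ± 10.9 FPKM in the libraries labelled knockout. The sums did not overlap between knockout and wild-type libraries in either line. In wild-type Panc1, COL18A1 made up 55.9% ± 0.984 and COL1A1 19.3% ± 0.716 of the sum. In knockout Panc1, COL1A1 made up 38.8% ± 3.13, COL18A1 36.0% ± 2.12, and COL5A1 10.3% ± 0.111 against 1.31% ± 0.0341 in wild-type. In wild-type MiaPaCa2, COL1A2 made up 34.1% ± 0.801, COL5A2 21.0% ± 0.849 and COL13A1 13.5% ± 1.19. In the libraries labelled knockout the shares were 39.9% ± 0.471 for COL1A2, 18.8% ± 0.215 for COL5A2 and 8.38% ± 0.553 for COL13A1. Together the 10 genes held 76.7% to 87.9% of the sum over the group means. These shares are parts of 1 total, so a larger share of one chain lowers the others.

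**Figure D4:**
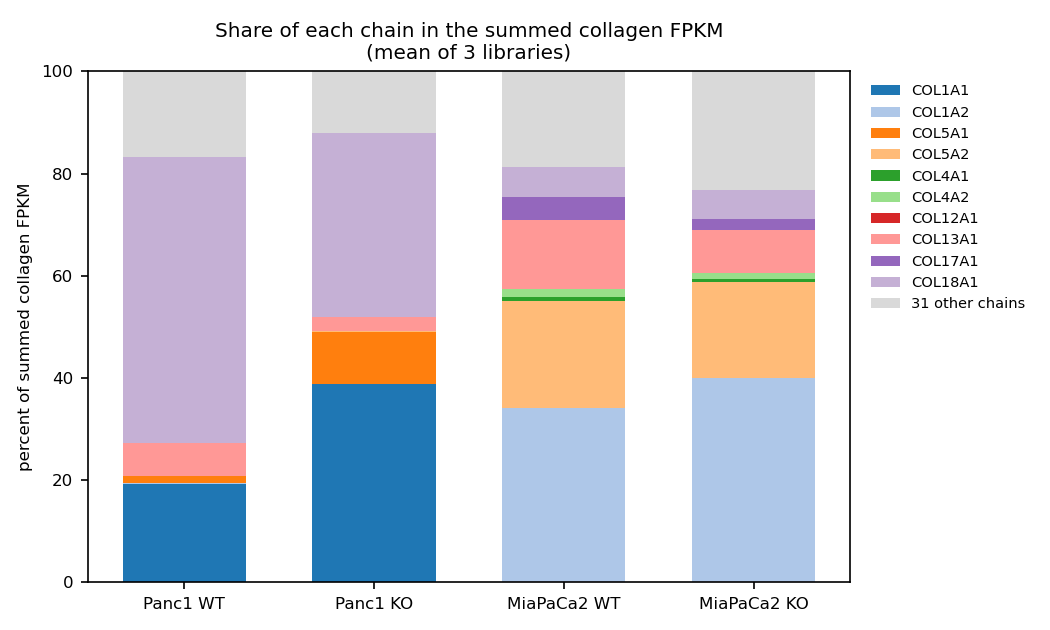
Share of the summed FPKM of 41 collagen chains held by each of the 10 genes and by all others, as stacked bars in percent, 1 bar per group mean of 3 libraries. COL18A1 and COL1A1 fill most of the Panc1 bars, and COL1A2, COL5A2 and COL13A1 most of the named part of the MiaPaCa2 bars.

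The other 31 collagen chains included 9 that could be tested. In Panc1, 5 of the 9 rose in knockout cells, 1 fell and 3 were not called, with a median log2 change of 0.17 against -0.10 for all genes. The share called was 66.7%, against 63.5% of all tested genes. COL6A2, a chain of the beaded filament collagen VI, went from 4.32 ± 0.328 to 9.98 ± 0.646 FPKM (log2 change 1.05, limma, adjusted p = 1.78e-07). COL7A1, the anchoring fibril collagen, went from 6.999 ± 0.251 to 11.9 ± 0.571 FPKM (log2 change 0.69, limma, adjusted p = 1.08e-05). COL11A1, a minor fibrillar chain related to COL5A1, went from 14.6 ± 0.553 to 22.8 ± 1.88 FPKM (log2 change 0.61, limma, adjusted p = 3.74e-06). COL22A1, a collagen of tissue junctions, was the one that fell, from 2.44 ± 0.136 to 0.445 ± 0.0946 FPKM (log2 change -1.25, limma, adjusted p = 5.22e-09).

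In MiaPaCa2, 4 of the 9 rose in the libraries labelled knockout, 0 fell and 5 were not called, with a median of 0.10 against 0.01. The share called was 44.4%, against 34.1%. COL6A1 went from 35.5 ± 1.71 to 49.8 ± 0.815 FPKM (log2 change 0.48, limma, adjusted p = 1.73e-05). COL27A1, another fibrillar chain, went from 4.41 ± 0.631 to 7.77 ± 1.05 FPKM (log2 change 0.70, limma, adjusted p = 0.00034). COL6A2 and COL7A1 also rose there, by 0.32 (limma, adjusted p = 0.00511) and 0.28 (limma, adjusted p = 0.0187). COL7A1 was low there, at 0.748 ± 0.21 FPKM in wild-type libraries and 1.11 ± 0.0735 FPKM in the libraries labelled knockout. COL6A3, the third chain of collagen VI, missed the filter; it was 0.111 ± 0.0189 FPKM in wild-type libraries and 1.64 ± 0.168 FPKM in the libraries labelled knockout. Between the wild-type lines 6 of the 9 were higher in Panc1, 2 were lower and 1 was not called. The share called was 88.9%, against 82.7% of all tested genes, 41.8% higher in Panc1 and 40.9% lower. All 6 that were higher passed the filter through Panc1 alone, which tied their direction to the filter. COL27A1, lower in Panc1, passed it through MiaPaCa2 alone. COL11A1 was higher in Panc1 by 3.94, COL21A1 by 2.58 and COL9A3 by 2.53 on the log2 scale (limma, adjusted p = 6.34e-15, 2.21e-13 and 5.91e-13).

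Collagen chains are hydroxylated, folded, exported, trimmed and cross-linked by dedicated proteins. Of 38 such genes 32 were tested. In Panc1, 9 rose, 11 fell and 12 were not called (median 0.05), so that 62.5% were called, near the 63.5% of all tested genes. PLOD2, a lysyl hydroxylase that sets the type of collagen cross-links, fell from 14.99 ± 0.532 to 7.71 ± 0.703 FPKM (log2 change -0.88, limma, adjusted p = 1.79e-07). SEC24D, a coat protein of the vesicles that carry procollagen, fell from 20.5 ± 0.708 to 11.3 ± 0.489 FPKM (log2 change -0.81, limma, adjusted p = 2.26e-07). Among the lysyl oxidase family, which cross-links collagen outside the cell, LOXL4 rose from 3.18 ± 0.143 to 5.91 ± 0.472 FPKM (log2 change 0.72, limma, adjusted p = 5.96e-07). LOXL1, a relative of LOXL4, fell by 0.58 on the log2 scale (limma, adjusted p = 2.94e-06). Higher COL1A1 and COL5A1 levels in knockout Panc1 thus stood beside synthesis and processing genes that moved both ways, 9 higher and 11 lower.

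In MiaPaCa2, 3 of the 32 rose, 6 fell and 23 were not called (median -0.03), so that 28.1% were called against 34.1% of all tested genes. CREB3L1, a transcription factor known to act on COL1A1 in bone cells, fell from 19.7 ± 1.22 to 12.1 ± 0.12 FPKM (log2 change -0.66, limma, adjusted p = 0.0001). P3H4, a partner of lysyl hydroxylase 1, fell from 13.3 ± 0.255 to 9.37 ± 0.104 FPKM (log2 change -0.47, limma, adjusted p = 7.05e-06). P3H3, a member of the prolyl 3-hydroxylase family, fell from 13.4 ± 0.793 to 9.46 ± 2.4 FPKM (log2 change -0.49, limma, adjusted p = 0.021). That call was lost with MiaPaCa2 fitted alone (adjusted p = 0.0959), with no filter (adjusted p = 0.0565), and without wild-type replicate 2 (adjusted p = 0.064) or replicate 3 (adjusted p = 0.0637). SERPINH1, the collagen chaperone HSP47, was abundant in all 4 groups, from 61.0 FPKM in wild-type Panc1 to 84.4 FPKM in wild-type MiaPaCa2, and was not called in either line (limma, adjusted p = 0.377 and 0.17). Between the wild-type lines 14 of the 32 were higher in Panc1, 14 lower and 4 not called. The share called was 87.5%, near the 82.7% of all tested genes, 41.8% higher in Panc1 and 40.9% lower. PLOD2 and LOXL1 passed the filter through Panc1 alone and CREB3L1 through MiaPaCa2 alone, which tied their direction to the filter. PLOD2 was higher in Panc1 by 3.98 (limma, adjusted p = 5.65e-15), LOXL1 by 4.22 (limma, adjusted p = 2.12e-15) and P3H2 by 3.98 (limma, adjusted p = 8.5e-15), and CREB3L1 was lower in Panc1, with a log2 difference of -3.43 (limma, adjusted p = 3.98e-13).

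**Figure D5:**
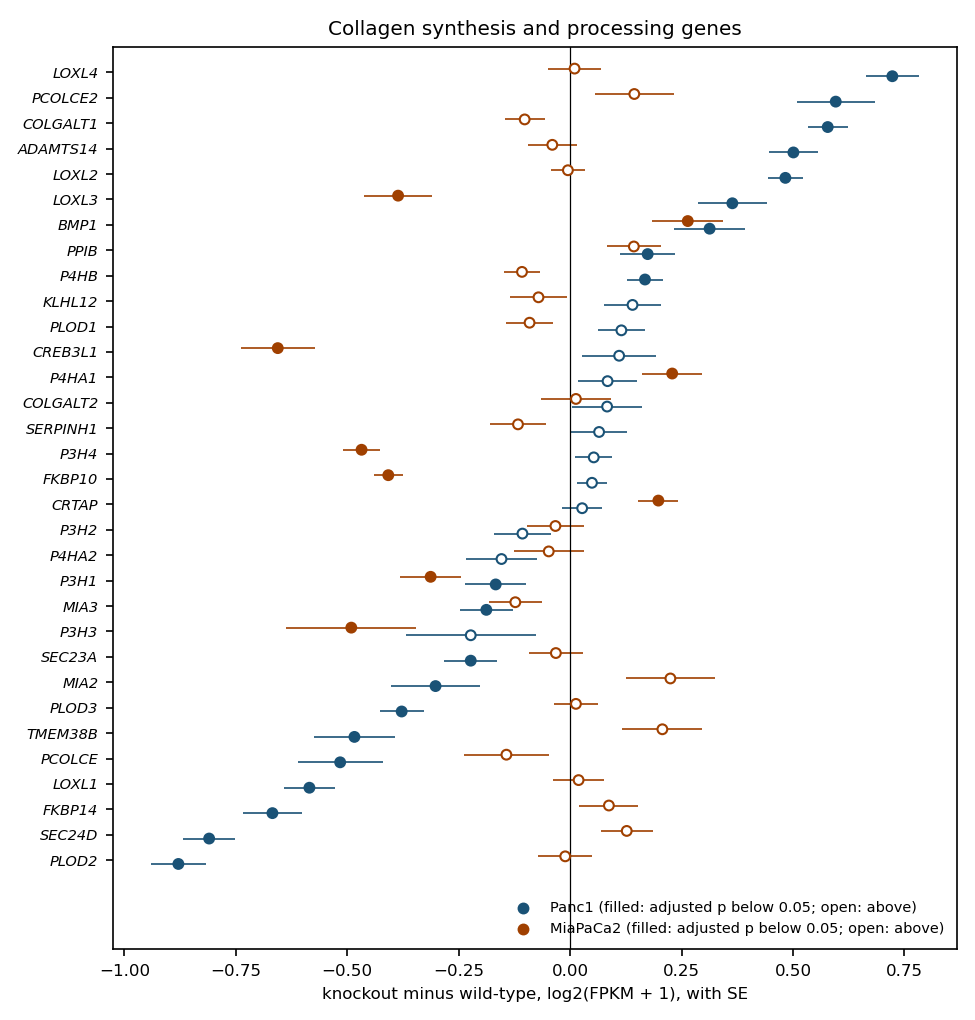
Knockout minus wild-type log2(FPKM + 1) change of the tested collagen synthesis and processing genes in each line, with bars of 1 SE; filled points have an adjusted p below 0.05 and open points do not. PLOD2 (-0.88) and SEC24D (-0.81) are lowest in Panc1 and LOXL4 (0.72) highest, and CREB3L1 (-0.66) is lowest in MiaPaCa2.

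Cells sense collagen through integrins, discoidin domain receptors and a few others. Of 12 receptors 8 were tested, and 2 rose, 2 fell and 4 were not called in Panc1 (median -0.02), while 1 rose, 2 fell and 5 were not called in MiaPaCa2 (median -0.09). The shares called were 50.0% and 37.5%, against 63.5% and 34.1% of all tested genes. ITGA2, the integrin subunit that binds fibrillar collagen, was 33.8 ± 1.02 FPKM in wild-type Panc1, fell to 22.5 ± 2.63 FPKM in knockout cells (log2 change -0.58, limma, adjusted p = 2.42e-05) and was near 0 in MiaPaCa2. DDR2, a receptor tyrosine kinase for fibrillar collagen, was 0.268 FPKM in wild-type Panc1 and 21.3 FPKM in wild-type MiaPaCa2 (log2 difference -4.14, limma, adjusted p = 3.59e-14). DDR2 passed the filter through MiaPaCa2 alone, which tied its direction to the filter. DDR1, its epithelial relative, rose in Panc1 by 0.40 (limma, adjusted p = 2.48e-05). In MiaPaCa2 DDR1 fell by 0.15 (limma, adjusted p = 0.0354), a call lost with that line fitted alone (adjusted p = 0.0546) and without wild-type replicate 2 (adjusted p = 0.147), knockout replicate 1 (adjusted p = 0.0925) or knockout replicate 3 (adjusted p = 0.0745). MRC2, which takes up collagen for breakdown, rose in both lines, by 0.47 in Panc1 (limma, adjusted p = 0.00012) and 0.55 in MiaPaCa2 (limma, adjusted p = 0.00015). ADGRG1, a receptor for collagen III, fell in MiaPaCa2 from 16.9 ± 3.87 to 4.57 ± 0.994 FPKM (log2 change -1.68, limma, adjusted p = 6.76e-06).

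Many matrix partners of fibrils were near 0 in these lines. Of 20 partners 5 were tested. FN1, which encodes fibronectin, and SPARC, a collagen-binding glycoprotein, had mean levels of at most 0.206 and 0.0597 FPKM in any group. In Panc1, 4 of the 5 rose and 1 was not called (median 0.56), so that 80.0% of these 5 were called against 63.5%. Among partners that missed the filter, FBN1 (1.35 to 0.419 FPKM), TNC (0.441 to 0.0473 FPKM) and FN1 (0.206 to 0.0713 FPKM) fell in knockout Panc1 without overlap. BGN rose there from 0.473 to 1.32 FPKM, also without overlap. CTHRC1, named for its collagen repeat, went from 2.35 ± 0.233 to 7.03 ± 0.4 FPKM (log2 change 1.26, limma, adjusted p = 8.98e-09). THBS1, the matrix protein thrombospondin 1, went from 2.72 ± 0.242 to 7.43 ± 0.55 FPKM (log2 change 1.18, limma, adjusted p = 1.88e-08). TGFBI, which binds collagen and integrins, rose in both lines, by 0.56 in Panc1 (limma, adjusted p = 0.00464) and 0.86 in MiaPaCa2 (limma, adjusted p = 0.00074). In MiaPaCa2, 3 rose and 2 were not called (median 0.28), so that 60.0% were called against 34.1%. FBLN5, an elastic fibre protein, rose there by 0.66 (limma, adjusted p = 6.23e-05).

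Tested basement membrane partners, laminins and nidogens among them, had the opposite order between the lines to the type IV collagens. All 13 tested members of that list of 20 were higher in wild-type Panc1 than in wild-type MiaPaCa2. The median log2 difference was 1.90, against 0.00 for all genes. Some of the 13, among them NID1, NID2, LAMB1 and LAMB3, passed the filter through Panc1 alone, which tied their direction to the filter. Of those that missed it, LAMA2 (0.00633 and 0.629 FPKM in wild-type Panc1 and MiaPaCa2) and LAMA3 (0.0243 and 0.159 FPKM) were lower in Panc1. LAMA4 (0.55 and 0 FPKM) and COL15A1 (0.0713 and 0.00567 FPKM) were higher. NID1, the linker of laminin and collagen IV, was 17.5 ± 0.42 against 0.019 ± 0.0115 FPKM (log2 difference 4.18, limma, adjusted p = 7.51e-16). LAMA5, a laminin chain, was 48.99 ± 2.61 against 3.10 ± 0.153 FPKM (log2 difference 3.61, limma, adjusted p = 2.28e-15). Between the lines, 82.7% of all tested genes were called, 41.8% higher in Panc1. In Panc1, 3 rose with knockout, 6 fell and 4 were not called (median -0.09), so that 69.2% were called against 63.5%. NID2, the relative of NID1, fell from 3.53 ± 0.255 to 0.0427 ± 0.0232 FPKM (log2 change -2.12, limma, adjusted p = 4.81e-11), and the laminin chain LAMC3 rose from 1.09 ± 0.0199 to 4.60 ± 0.0275 FPKM (log2 change 1.42, limma, adjusted p = 2.39e-09). In MiaPaCa2, 2 rose, 3 fell and 8 were not called (median 0.00), so that 38.5% were called against 34.1%. AGRN, the heparan sulfate proteoglycan agrin, fell by 0.62 on the log2 scale (limma, adjusted p = 7.42e-07).

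Hemidesmosome genes that work with COL17A1 formed a list of 10, of which 7 were tested. In MiaPaCa2, 1 fell and 6 were not called (median -0.05), so that 14.3% were called, where 34.1% of all tested genes were. The one that fell was CD151, a tetraspanin bound to laminin-binding integrins (log2 change -0.19, limma, adjusted p = 0.000962). ITGB4, the integrin subunit that binds COL17A1 in hemidesmosomes, was 82.4 ± 3.97 FPKM in wild-type libraries and 95.4 ± 14.5 FPKM in the libraries labelled knockout (log2 change 0.20, limma, adjusted p = 0.179). In Panc1, where COL17A1 was near 0, 2 of the 7 rose, 3 fell and 2 were not called, so that 71.4% were called against 63.5%. ITGB4 rose there from 4.32 ± 0.703 to 12.6 ± 1.04 FPKM (log2 change 1.36, limma, adjusted p = 5.02e-07), and the laminin chain LAMB3 fell by 0.77 on the log2 scale (limma, adjusted p = 2.49e-07).

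The genes whose pattern over the 12 libraries was most like that of 4 members were found by Pearson correlation of log2(FPKM + 1), which is a description of 4 groups. For COL1A1 they were SLIT3 (0.9998), SCNN1B (0.9998) and FGF11 (0.9996), and for COL5A1 RYR1 (0.9992), ZNF462 (0.9991) and IGFBP7 (0.9990). IGFBP7 went from 4.43 to 27.4 FPKM between the wild-type and knockout Panc1 means and was 0.315 FPKM in wild-type MiaPaCa2. For COL4A1 they were ABCC2 (0.9990), NEURL1B (0.9988) and the MIR137 row (0.9987), and for COL17A1 PIK3AP1 (0.9989), MELTF (0.9986) and CEP170B (0.9985). None of these 12 was another collagen chain gene, COL4A2 included. Only the closest genes were kept for each member, so this does not tell how closely COL4A2 followed COL4A1.

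A further 6 antisense genes of the collagen loci were listed, at 1.19 FPKM or less in every library. No source used here tells whether the authors counted by strand, so reads of a collagen gene and its antisense partner cannot be told apart where they overlap. The same holds for the overlapping starts of COL4A1 and COL4A2.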

How the data were processed

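RNA-seq of 12 libraries was used. The deposited FPKM values, 1 per gene symbol and library, were made by the authors: per the submitters' processing notes and the series' design text, reads were aligned to hg19 with TopHat2 2.0.14 and FPKM came from STAR 2.5.2a. Symbols not listed in a library were set to 0. log2(FPKM + 1) was fitted with limma 3.58.1 (R 4.3.3), 4 group means, empirical Bayes with trend, two-sided, with Benjamini-Hochberg adjustment over the 13340 genes that averaged 1 FPKM or more across a line's 6 libraries, and called at an adjusted p below 0.05. The script was tested on simulated data. Libraries of a group correlated at 0.9962 to 0.998, and no 2 held identical values. The 10 members and all gene lists were chosen with earlier results of these data known. Named from each list and comparison were up to 3 genes with the largest change. They were taken from called genes without overlap and with 1 FPKM or more in the higher group. SERPINH1, COL3A1, COL6A3, FN1, SPARC, THY1, FBLN1, ACTA2, PDGFRB, LUM, DES, EPCAM, KRT8, KRT18 and KRT19 were named after their values were seen. So were LAMA2, LAMA3, LAMA4, COL15A1, FBN1, TNC, BGN, KRT7, MUC1 and CDH1. The measures of other-line genes, exon lengths and promoter motifs were also chosen after values were seen. A gene that the rule names is not reported here. Standard errors of members come from the spread of the compared groups. Depth and counting error are unknown. Alternatives were other pseudocounts, filters, scalings and fits, and leaving out each library.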

Additional observations from a re-analysis of the deposited data

Results flagged for a closer look

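The knockout effect, in log2(FPKM + 1), differed between Panc1 and MiaPaCa2 for 26 of the genes named from the lists, by the interaction term of the limma fit (adjusted p below 0.05). The background is wide, since 57.4% of all tested genes differed by that test. The 26 cannot be compared with that share. Some were named because their values in this same test were the largest, and a call in a line was also required. Each value is the Panc1 effect minus the MiaPaCa2 effect.

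Among other collagen chains the difference was 0.62 for COL11A1, -1.25 for COL22A1, -0.46 for COL6A1, 0.72 for COL6A2 and 0.42 for COL7A1 (adjusted p from 2.15e-07 to 0.0074). Among synthesis and processing genes it was 0.77 for CREB3L1, -0.60 for LOXL1, 0.71 for LOXL4, 0.52 for P3H4, -0.87 for PLOD2 and -0.94 for SEC24D (adjusted p from 2.24e-06 to 0.000163). Among receptors it was 1.92 for ADGRG1, which fell in MiaPaCa2 and was not called in Panc1, 0.56 for DDR1, -0.49 for ITGA10 and -0.52 for ITGA2 (adjusted p from 1.38e-05 to 0.0163). The ITGA2 difference was -0.19 (adjusted p = 0.524) at a pseudocount of 0.1, where it was not called. Among fibril partners it was 1.25 for CTHRC1, -0.65 for FBLN5 and 1.17 for THBS1 (adjusted p from 3.58e-07 to 0.000365). Among basement membrane and hemidesmosome genes it was 0.66 for AGRN, 0.35 for CD151, 1.16 for ITGB4, -0.35 for LAMB1, -0.72 for LAMB3, -0.22 for LAMC1, 1.34 for LAMC3 and -2.13 for NID2 (adjusted p from 1.85e-09 to 0.0206). Several of these genes, among them COL11A1, COL22A1, PLOD2, THBS1 and CTHRC1, were near 0 in MiaPaCa2, where no change could be measured.

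COL5A1 was higher in every knockout library of Panc1 and lower in every library labelled knockout of MiaPaCa2, a difference of 3.61 between the effects that was not tested. Its MiaPaCa2 levels were all at 0.085 FPKM or less.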

How the results depend on the processing

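Under every alternative run (pseudocount 0.1, no filter, a filter at 5 FPKM, 3 scalings, no trend, array weights, each line alone, the block, genes listed in all 12 libraries), the counts of genes and of list members called stayed within 1.5 times the reported ones. Leaving out 1 library at a time gave 7642 to 8816 called genes in Panc1 (8466 with all), 3413 to 4592 in MiaPaCa2 (4545), 6944 to 7679 for the difference (7661) and 10661 to 11198 between lines (11034), and 41 to 47, 20 to 27, 41 to 48 and 63 to 66 list members. Of 67 named list values, 3 lost the call in some setting: P3H3 and DDR1 in MiaPaCa2, and ITGA2 for the difference at a pseudocount of 0.1 (-0.19, adjusted p = 0.524). No direction reversed among the named list genes. For the 10 members, 736 recomputed values stayed within 1 SD and 57 moved further; the sign of the knockout difference of COL1A1 and COL5A2 in MiaPaCa2 changed with scaling. COL12A1 has no value where the filter applied. A replicate block gave 8141 called genes in Panc1, 3959 in MiaPaCa2 and 7247 for the difference, and it was not fitted between the lines; in MiaPaCa2 COL4A1 was not called under it, nor was DDR1 (adjusted p = 0.0729). Same-numbered libraries correlated in their deviations at 0.019 to 0.076 in Panc1 and -0.17 to -0.001 in MiaPaCa2. These values showed no sign of pairing by number, and they cannot tell whether same-numbered libraries were handled together. A count test was not run because whole reads were not recovered from FPKM. Depth is unknown, and near 0 FPKM the members allow no ratio.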
